A study of Homo sapiens with 12 samples.

Results

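The genes followed here are 9 genes of the eIF5A and polyamine pathway in a human cell line treated with girolline. They are EIF5A and EIF5A2, which encode the translation factor eIF5A and its paralog, DHPS, which encodes deoxyhypusine synthase, and 6 genes of polyamine metabolism, ODC1, AMD1, SRM, SMS, AZIN1 and SAT1. Each was taken by its Ensembl transcript ID in the monosome tables, such as ENST00000336458.13 for EIF5A, ENST00000368885.8 for AMD1, ENST00000234111.9 for ODC1 and ENST00000379270.4 for SAT1, and all 9 were found among 100283 coding transcript rows. The RNA-seq and disome tables carry UCSC IDs on 93916 coding rows, and each gene's row there was found by aligning the coding rows of both kinds of table in file order on coding length. In RefSeq (GRCh38.p14) EIF5A lies at chr17:7306999-7312463, AMD1 at chr6:110814617-110895713, ODC1 at chr2:10439968-10448327 and SAT1 at chrX:23783173-23786210. Wild-type cells of the established line HEK293T Flp-In, derived from human embryonic kidney and carrying a recombination site for transgenes, were kept for 2 h with the solvent DMSO, with 1 µM girolline or with 10 µM girolline, a natural product of a marine sponge. The series title names girolline as a modulator of eIF5A. The 12 libraries were of 3 kinds: poly(A) RNA-seq, which measures mRNA level, monosome footprints, the mRNA fragments covered by a lone ribosome, and disome footprints, the longer ones under adjoining ribosomes. Within a kind, DMSO had 2 libraries and either dose a lone library, so the spread between replicates is known only from the DMSO pairs, and the labels do not state that these came from separate cultures.

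eIF5A binds the ribosome and helps it through stretches where peptide bonds form slowly and at stop codons. It works only once a lysine has been turned into hypusine, a residue built by deoxyhypusine synthase from the polyamine spermidine and finished by a hydroxylase. Some polyamine genes are known for feedback on translation. When spermidine and spermine are plentiful, the mRNAs for some enzymes of their synthesis are translated less, and those for some proteins that remove them more.

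The AMD1 mRNA, for S-adenosylmethionine decarboxylase, is the classic case of this feedback. A short reading frame in its leader, upstream of the coding region, is known to hold ribosomes in a polyamine-dependent way. Because AMD1 had the largest footprint change of the 9 genes, that frame is shown here. With it stands the other short frame that the same search found, in DHPS. Both were found in the first 50 transcribed bases after RefSeq start sites (GRCh38.p14), read 5′ to 3′ on the transcribed strand as ATG followed in frame by TAA, TAG or TGA. Capitals mark the start and stop codons.
AMD1, chr6:110874796-110874816, plus strand: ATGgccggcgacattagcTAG
DHPS, chr19:12681350-12681364, minus strand: ATGctggtacggTAA
The AMD1 frame has 6 sense codons and starts 11 or 12 bases after the start site in 2 of the gene's 3 annotated windows. The DHPS frame has 4 sense codons and starts 6 bases after its start site. The search did not check where coding regions start, so the DHPS frame is not shown to lie upstream of one. Of 16 windows matched for 8 of the 9 genes, 3 held such a frame, beside 10.2% of 35116 windows over all genes. Of these 3, 2 are overlapping AMD1 windows that hold the same frame. AZIN1 was not matched to a window and so was not searched. The AMD1 sequence itself occurred in 2 windows, both of AMD1. The deposited tables hold 1 count per transcript with no positions, so footprints on these frames cannot be read from them.

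Total counts lay between 28424272 and 42194871 for RNA-seq, between 21570489 and 38074691 for monosomes and between 3091715 and 5769026 for disomes. Counts were compared after TMM scaling, which sets a library against the bulk of its transcripts, so every change below is relative to the other transcripts. In these bulk libraries a change in some of the cells and a smaller one in all of them cannot be told apart. Each kind was tested with edgeR's quasi-likelihood test, the lone library of a dose being assumed to vary like the DMSO pair, and a change was called at a Benjamini-Hochberg adjusted p under 0.05 over all rows tested.

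In DMSO the mRNAs of the 9 genes spanned a wide range of levels. Given as TMM-scaled CPM (counts relative to library size) per 100 counted codons, the mean ± SD of the DMSO libraries (n = 2) was 109 ± 4.21 for EIF5A and 79.0 ± 0.4 for SAT1, which encodes the acetyltransferase that starts polyamine breakdown. ODC1, for ornithine decarboxylase, followed at 36.1 ± 2.26. AMD1 at 23.7 ± 1.92 and SMS, for spermine synthase, at 23.0 ± 1.29 did not differ beyond their spread. SRM, for spermidine synthase, lay at 17.8 ± 1.19. AZIN1, for the antizyme inhibitor that protects ornithine decarboxylase from degradation, lay at 6.49 ± 0.721 and DHPS at 5.61 ± 0.502, and their SD ranges overlapped as well. EIF5A2 came last at 1.42 ± 0.184.

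The order of ribosome footprints in DMSO was another one. On the same scale, monosome levels were 278 ± 8.99 for EIF5A, 10.9 ± 0.322 for ODC1, 9.09 ± 0.879 for SMS, 8.56 ± 0.988 for SAT1, 6.45 ± 0.308 for SRM, 4.63 ± 0.0851 for DHPS, 1.62 ± 0.187 for EIF5A2, 1.58 ± 0.0309 for AMD1 and 1.20 ± 0.111 for AZIN1. SMS and SAT1 did not differ beyond their spread, nor did EIF5A2 and AMD1. The monosome level over the mRNA level, as a log2 ratio per counted codon, describes how densely an mRNA is covered by ribosomes. In DMSO it was 1.35 for EIF5A, above 97.6% of 9570 paired transcript rows with at least 10 CPM in both kinds, whose median was -0.05. It was -3.91 for AMD1, below which only 0.0209% of those rows fell, and -3.21 for SAT1, below which 0.115% fell. AZIN1 had -2.44, ODC1 -1.73, SRM -1.46 and SMS -1.34, so that for each of the 6 polyamine genes at most 5.53% of rows lay lower, whereas DHPS at -0.28 and EIF5A2 at 0.19 lay nearer the median. AMD1, AZIN1 and EIF5A2 are below 10 CPM in the DMSO monosome libraries and are set beside those rows without being among them. That cut leaves out mRNAs with few monosome footprints, where low ratios occur, as in AMD1 and AZIN1. The shares of rows given as lying lower may therefore be too small.

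**Figure D1:**
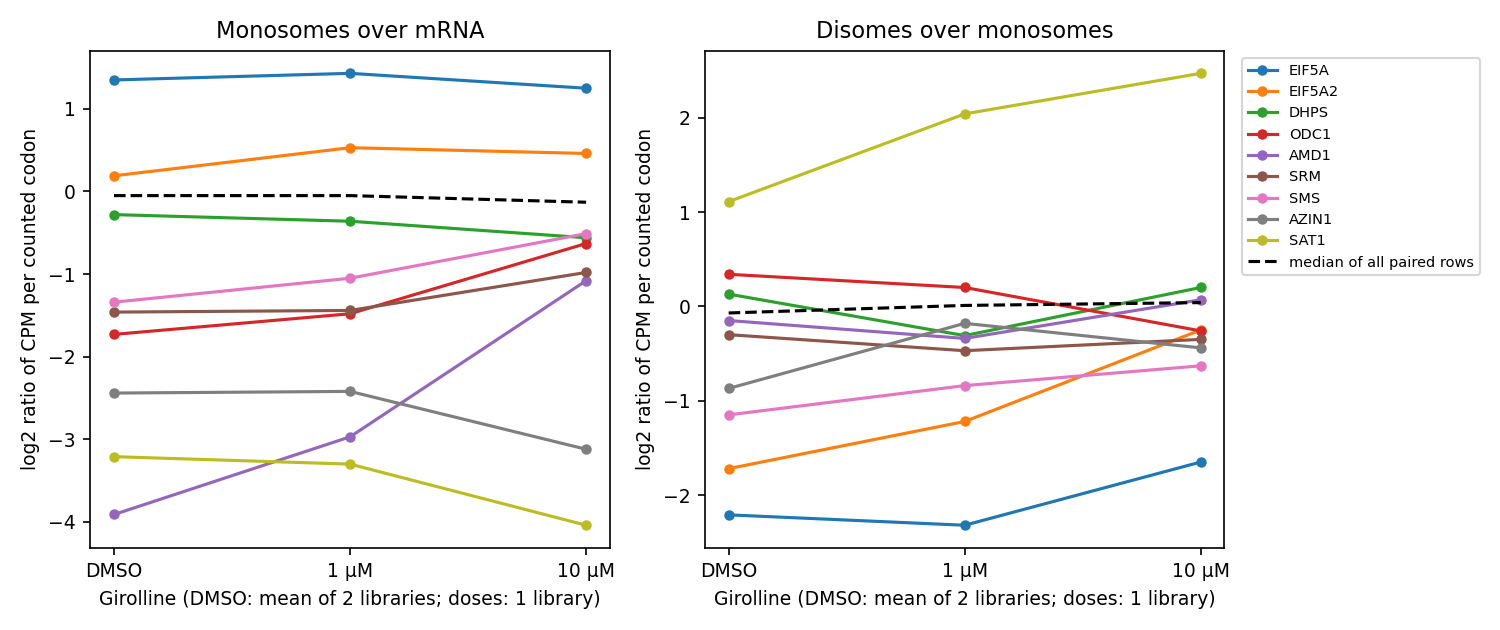
Log2 ratio of monosome to mRNA levels (left) and of disome to monosome levels (right) per counted codon, against girolline dose, for each of the 9 genes, with DMSO as the mean of 2 libraries and each dose as 1 library. AMD1 climbs on the left from -3.91 in DMSO through -2.97 at 1 µM to -1.08 at 10 µM, and SAT1 climbs on the right through 1.11, 2.04 and 2.47, while the dashed median of all paired rows stays near 0.

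The first comparison asked whether the mRNAs themselves moved within 2 h, and none of the 9 was called at either dose. AMD1 had 2277 and 3264 RNA-seq counts in the DMSO libraries, 3128 at 1 µM and 2250 at 10 µM. After scaling, both doses lay within the range of the DMSO pair, with a log2 fold change at 10 µM of 0.06 and an SE of 0.18 (edgeR, adjusted p = 0.952). ODC1 had 4933 and 6889 counts in DMSO, 6232 at 1 µM and 4292 at 10 µM, and SAT1 had 3865 and 4975 in DMSO, 4787 at 1 µM and 3670 at 10 µM. Across the 9 genes the log2 fold changes ran from -0.08 to 0.08 at 1 µM and from -0.23 to 0.08 at 10 µM, the lowest being EIF5A (edgeR, adjusted p = 0.686). No unadjusted p under 0.05 occurred among the 9 genes at either dose, and DESeq2 also called 0 of them. Over all 56229 rows edgeR called 0% at 1 µM, with 557 rows at an unadjusted edgeR p under 0.05, and DESeq2 called none. At 10 µM edgeR called 1.11%, 0.537% higher and 0.571% lower.

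**Figure D2:**
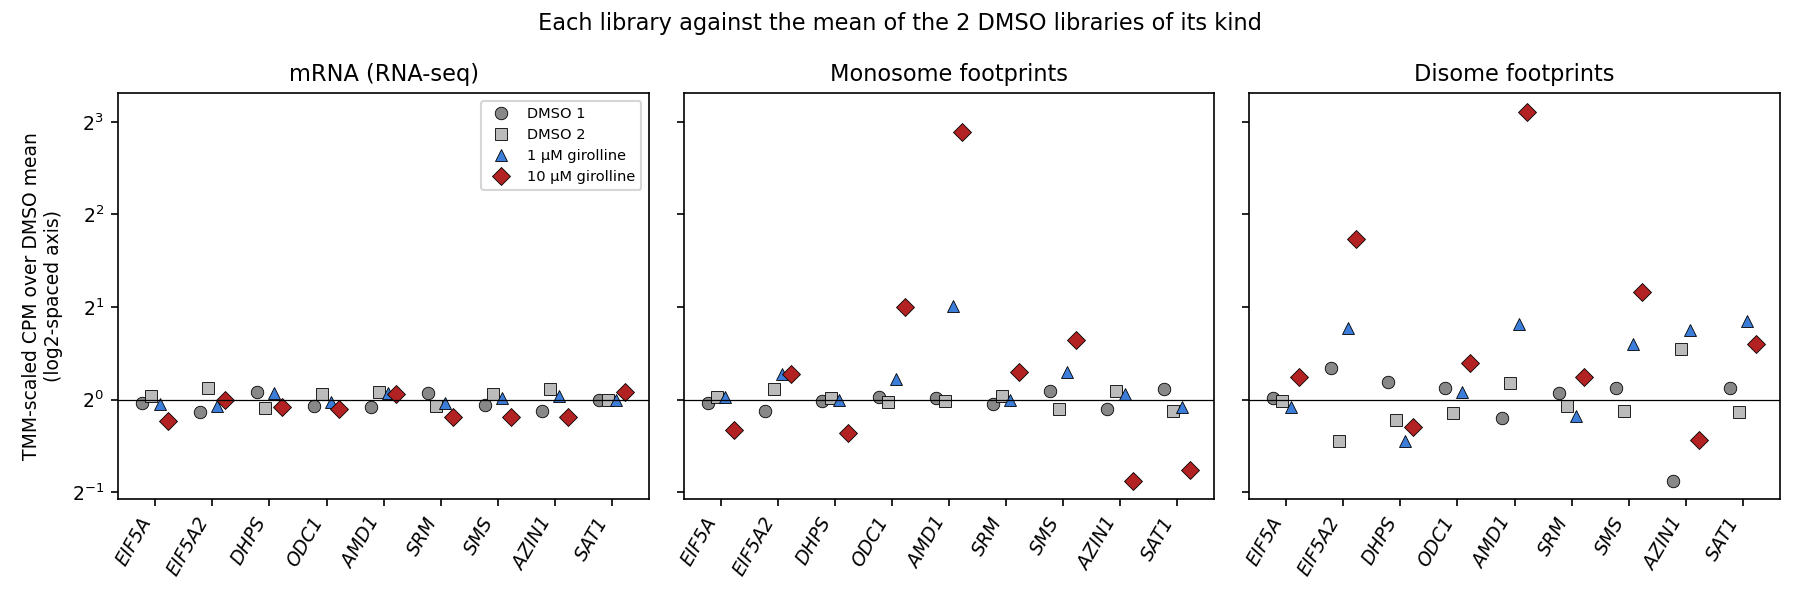
TMM-scaled CPM of each library divided by the mean of the DMSO pair, on a log2-spaced axis, for the 9 genes in RNA-seq, monosome and disome libraries; each point is 1 library. The mRNA points stay close to 1 at both doses, while AMD1 reaches 7.41-fold in monosomes and 8.62-fold in disomes at 10 µM, and AZIN1 and SAT1 fall to 0.545-fold and 0.592-fold in monosomes.

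The monosome libraries asked whether ribosome occupancy of the coding regions changed, and there the enzymes of polyamine synthesis rose at 10 µM while the antizyme inhibitor, the catabolic acetyltransferase, eIF5A and deoxyhypusine synthase fell. Of the 9 genes, 4 were called higher and 4 lower at 10 µM. Over all 55409 rows tested, 32.2% were called in either direction, 16.5% higher and 15.7% lower. Several of these changes were of common size. Of all rows, 27.9% had a larger log2 fold change than SRM and 11.3% a larger one than SMS, while 21.6% lay below EIF5A and 19.4% below DHPS. At 1 µM 2 genes were called, both higher, beside 1.73% of all rows called, 1.03% higher and 0.7% lower. The median log2 fold change of the 9 genes was 0.261 at 10 µM and 0.057 at 1 µM, beside 0.013 and -0.003 over all rows.

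AMD1 makes the aminopropyl donor that both spermidine and spermine synthase need. It had 151 and 175 monosome counts in DMSO, 221 at 1 µM and 1504 at 10 µM, or 5.22, 5.08, 10.4 and 38.1 TMM-scaled CPM. Both doses lay above the DMSO pair, whose ratio of DMSO 2 to DMSO 1 was 0.973. The log2 fold change was 1.01 with an SE of 0.14 at 1 µM (edgeR, adjusted p = 1.61e-07) and 2.89 with an SE of 0.10 at 10 µM (edgeR, adjusted p = 1.03e-45). At 10 µM only 25 of the 55409 rows had a larger log2 fold change, and none of the 9336 rows of 300 to 499 codons, the length class of AMD1. The 1 µM call was lost in fits of all 12 libraries that left out monosome DMSO 1 (log2 fold change 1.03, edgeR, adjusted p = 0.28) or monosome DMSO 2 (0.99, edgeR, adjusted p = 0.577) although these values lie close to 1.01.

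ODC1 encodes the enzyme that opens the pathway by making putrescine. It had 1453 and 1660 monosome counts in DMSO, 1230 at 1 µM and 3873 at 10 µM, or 50.2, 48.2, 57.7 and 98.2 TMM-scaled CPM. The 10 µM library lay far above the DMSO pair and the 1 µM library a little above it. At 10 µM the log2 fold change was 1.00 with an SE of 0.07 (edgeR, adjusted p = 4.24e-24), and at 1 µM it was 0.23 with an SE of 0.08 (edgeR, adjusted p = 0.0967), which was not called. Only 4.26% of rows had a larger log2 fold change at 10 µM.

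SMS, which turns spermidine into spermine, had 1003 and 1042 monosome counts in DMSO, 850 at 1 µM and 2001 at 10 µM. Scaled, these were 34.7, 30.2, 39.9 and 50.7 CPM, so both doses lay above the DMSO pair. The log2 fold change was 0.30 with an SE of 0.08 at 1 µM (edgeR, adjusted p = 0.0372) and 0.65 with an SE of 0.08 at 10 µM (edgeR, adjusted p = 7.53e-12). In fits of all 12 libraries the 10 µM value was 0.55 without monosome DMSO 2 (edgeR, adjusted p = 0.122) and the 1 µM value was 0.40 without DMSO 1 and 0.20 without DMSO 2, neither of them called. The 1 µM change already missed the threshold in that fit with no library left out (0.30, edgeR, adjusted p = 1.0), and it did so with 1 row kept per block of 10 rows (0.31, edgeR, adjusted p = 0.0695). SRM, which makes spermidine from putrescine, had 528 and 673 counts in DMSO, 401 at 1 µM and 913 at 10 µM, or 18.2, 19.5, 18.8 and 23.1 TMM-scaled CPM. Only the 10 µM library lay above the DMSO pair, and its log2 fold change of 0.29 (SE 0.09; edgeR, adjusted p = 0.00657) was the smallest of the 4 rises. That call was lost with DESeq2 (adjusted p = 0.393), in the fit of all 12 libraries (edgeR, adjusted p = 0.2) and in it without monosome DMSO 1 or without DMSO 2 (log2 fold changes 0.25 and 0.34).

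Among the genes that fell, AZIN1 had 142 and 193 monosome counts in DMSO, 117 at 1 µM and 113 at 10 µM, or 4.91, 5.60, 5.49 and 2.86 TMM-scaled CPM. The 10 µM library lay below the DMSO pair and the 1 µM library within it. At 10 µM the log2 fold change was -0.88 with an SE of 0.17 (edgeR, adjusted p = 2.29e-05), and 3.97% of rows were lower. DESeq2 did not call it (adjusted p = 0.105), nor did the fit of all 12 libraries without monosome DMSO 2 (-0.77, edgeR, adjusted p = 0.116).

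SAT1 had 434 and 439 monosome counts in DMSO, 279 at 1 µM and 324 at 10 µM. These were 15.0, 12.7, 13.1 and 8.21 TMM-scaled CPM, so that the 10 µM library lay below the DMSO pair and the 1 µM library inside it. This fall had a log2 fold change of -0.75 with an SE of 0.12 (edgeR, adjusted p = 9.07e-08), and 5.83% of rows were lower. Without monosome DMSO 1, in a fit of all 12 libraries, it was -0.63 (edgeR, adjusted p = 0.0698).

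EIF5A itself, with 11387 and 14201 monosome counts in DMSO, 8746 at 1 µM and 12646 at 10 µM, had the most footprints of the 9 genes in every library. Scaled, these were 394, 412, 410 and 321 CPM, and only the 10 µM library lay outside the DMSO pair. The log2 fold change at 10 µM was -0.33 with an SE of 0.06 (edgeR, adjusted p = 1.04e-06). DHPS, the enzyme of the first step of hypusination, had 476 and 582 counts in DMSO, 354 at 1 µM and 511 at 10 µM, or 16.5, 16.9, 16.6 and 13.0 TMM-scaled CPM. Again only the 10 µM library lay outside the DMSO pair, and the log2 fold change was -0.36 with an SE of 0.10 (edgeR, adjusted p = 0.00235).

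Neither fall passed in every alternative. In the fit of all 12 libraries EIF5A had an edgeR adjusted p = 0.059 and DHPS 0.15, DHPS also missed the threshold with DESeq2 (adjusted p = 0.266), and without monosome DMSO 1 or DMSO 2 neither passed (log2 fold changes of -0.36 and -0.29 for EIF5A and -0.38 and -0.34 for DHPS). EIF5A2, the paralog with restricted expression, had 62 and 87 monosome counts in DMSO, 60 at 1 µM and 111 at 10 µM. The 10 µM change, 0.26 on the log2 scale with an SE of 0.20 (edgeR, adjusted p = 0.345), was not detectable at so few counts. RefSeq lists EIF5AL1, a coding copy of EIF5A, and pseudogenes of EIF5A, AMD1, SRM and SMS, and how reads matching several places were handled is not given in the sources used here, so values of these 4 genes are uncertain to that extent.

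**Figure D3:**
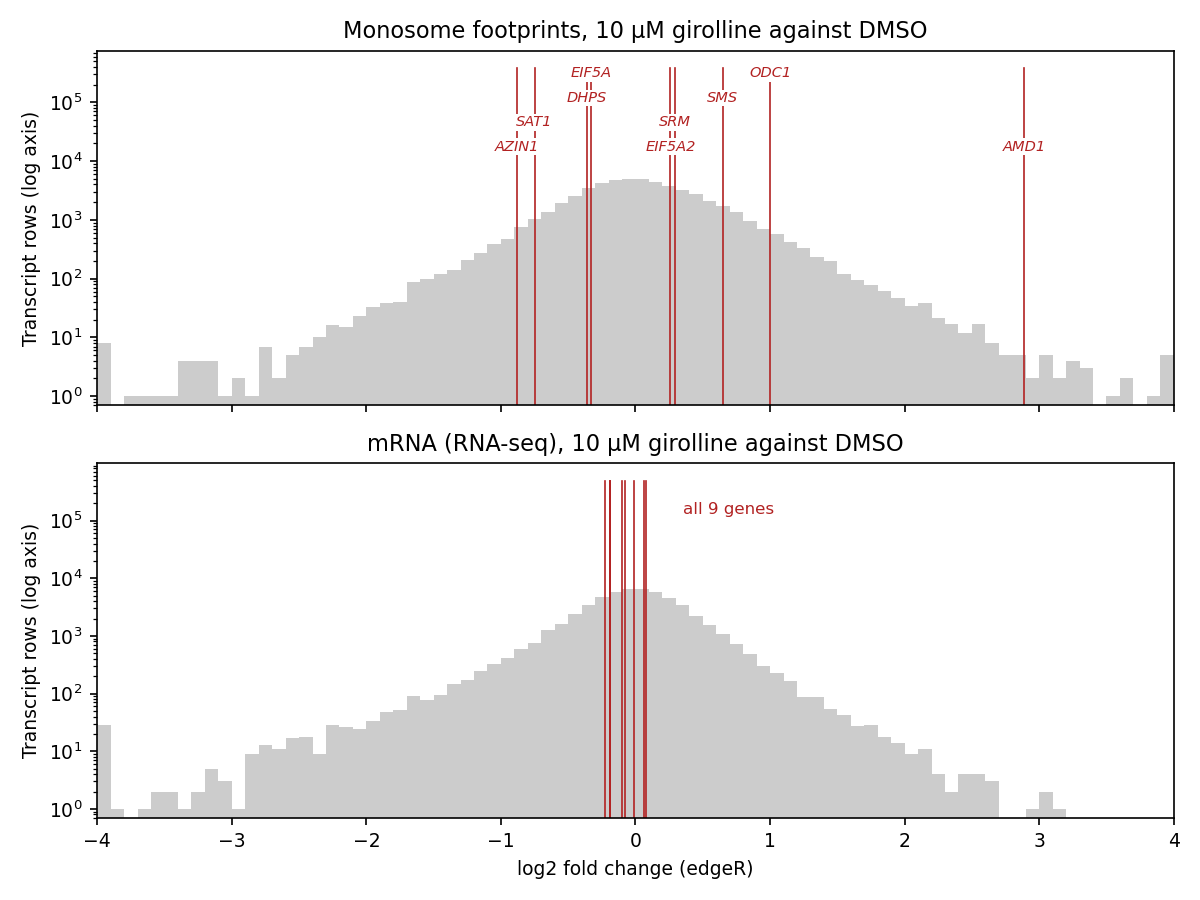
Number of transcript rows (log axis) by log2 fold change at 10 µM girolline against DMSO, in bins of 0.1, for monosome footprints (top) and mRNA (bottom), with values beyond the axis in the end bins and the 9 genes as vertical lines. In monosomes the genes spread from -0.88 for AZIN1 to 2.89 for AMD1, whereas in mRNA all 9 lie between -0.23 and 0.08.

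Because mRNA levels were measured in the same conditions, the monosome change was also tested relative to the mRNA change, as an interaction in 1 edgeR fit of all 12 libraries. At 10 µM 4 of the 9 genes were called, 3 higher and 1 lower, beside 9.53% of 48956 rows called, 5.51% higher and 4.02% lower. The ratio rose for AMD1 by 2.83 on the log2 scale (SE 0.21; edgeR, adjusted p = 6.64e-16), for ODC1 by 1.10 (SE 0.18; edgeR, adjusted p = 1.37e-05) and for SMS by 0.83 (SE 0.20; edgeR, adjusted p = 0.00219). It fell by 0.84 for SAT1 (SE 0.21; edgeR, adjusted p = 0.00373). SRM, at 0.48, and AZIN1, at -0.69, had the signs of their monosome changes but were not called (edgeR, adjusted p = 0.146 and 0.107). EIF5A at -0.10 and DHPS at -0.28 were not called either (edgeR, adjusted p = 0.806 and 0.519), so their small monosome falls were not separated from their mRNA values.

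The calls for AMD1 and ODC1 held in every alternative. That for SMS was lost without monosome DMSO 2 (0.74, edgeR, adjusted p = 0.121) and that for SAT1 without monosome DMSO 1 (-0.72, edgeR, adjusted p = 0.133). Conversely SRM passed without RNA-seq DMSO 2 (0.54, edgeR, adjusted p = 0.00867), and AZIN1 passed without RNA-seq DMSO 1 (-0.58, edgeR, adjusted p = 0.046) or DMSO 2 (-0.81, edgeR, adjusted p = 0.00327). At 1 µM edgeR called none of the 9 and 0.00613% of all rows. AMD1 had the only unadjusted p under 0.05 among the 9, with a log2 change of 0.93 (SE 0.23; edgeR, adjusted p = 0.353), and DESeq2 called 0. Without RNA-seq DMSO 1 or DMSO 2 the AMD1 change passed at 1 µM, at 1.01 (edgeR, adjusted p = 0.00061) and 0.84 (edgeR, adjusted p = 0.012). In levels, the log2 ratio of AMD1 was -3.91 in DMSO, -2.97 at 1 µM and -1.08 at 10 µM, and at 10 µM 11.4% of rows lay below it, where 0.0209% had in DMSO. SAT1 had -3.21, -3.30 and -4.04, and no row of the 9570 lay below it at 10 µM. The rows are those chosen at 10 CPM in DMSO, which leaves out mRNAs with few footprints, so these shares may be too small.

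**Figure D4:**
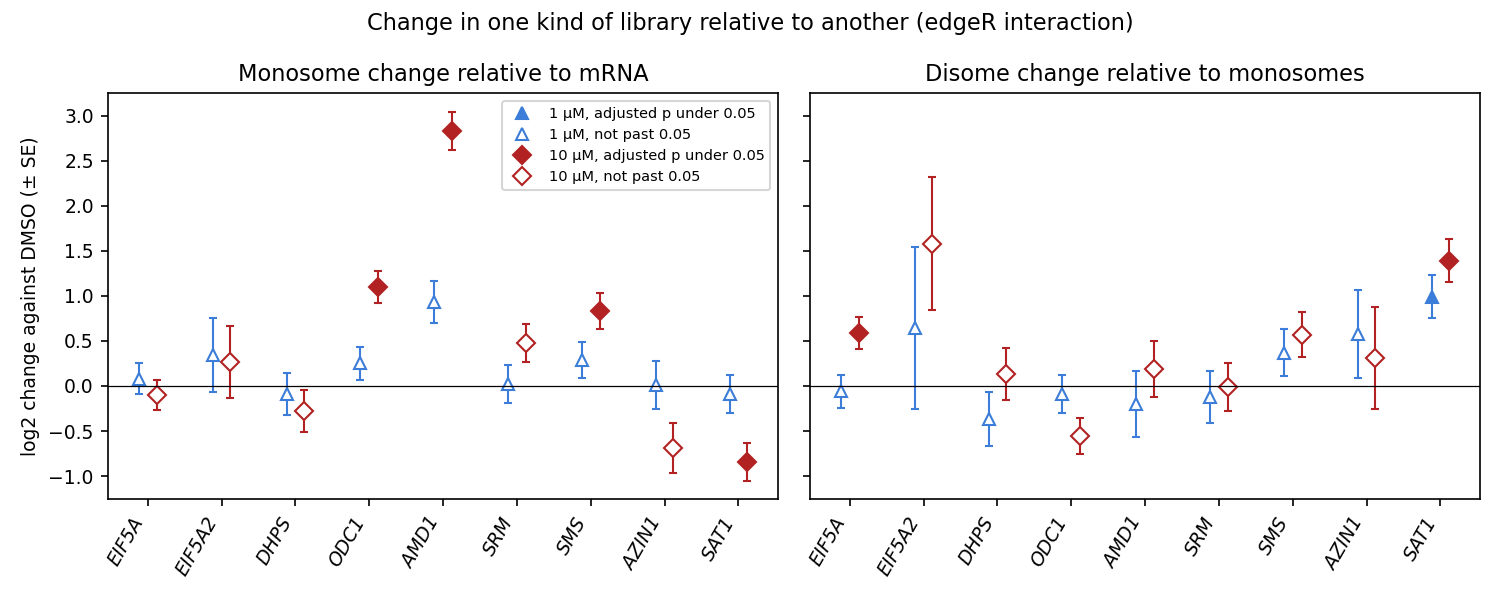
Log2 change at 1 µM (triangles) and 10 µM (diamonds) girolline against DMSO in monosomes relative to mRNA (left) and in disomes relative to monosomes (right), from the edgeR interaction, with bars of 1 SE; filled symbols have an adjusted p under 0.05. On the left AMD1, ODC1 and SMS are filled above 0 and SAT1 below it at 10 µM, and on the right SAT1 is filled at both doses and EIF5A at 10 µM.

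Disome footprints, which mark ribosomes that sit against each other, were called higher for 3 of the 9 genes at 10 µM and for 1 at 1 µM, and lower for none. Over all 34606 rows tested, 35.7% were called at 10 µM, 20.8% higher and 14.9% lower. Counted in either direction, the 9 genes were called in no larger a share than all rows. All 3 of their calls were higher, a direction called in 20.8% of all rows. At 1 µM 7.08% of rows were called, 5.4% higher and 1.68% lower. AMD1 had 13 and 29 disome counts in DMSO, 39 at 1 µM and 228 at 10 µM, with both doses above the DMSO pair. Its log2 fold change was 3.06 with an SE of 0.28 at 10 µM (edgeR, adjusted p = 1.31e-26) and 0.77 with an SE of 0.37 at 1 µM (edgeR, adjusted p = 0.216), and at 10 µM 0.197% of the rows of 300 to 499 codons were higher.

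SMS had 51 and 74 disome counts in DMSO, 106 at 1 µM and 187 at 10 µM, or 16.3, 13.7, 22.9 and 33.7 TMM-scaled CPM. Both doses lay above the DMSO pair, and the 10 µM value had a log2 fold change of 1.19 (SE 0.24; edgeR, adjusted p = 1.12e-05), which DESeq2 did not call (adjusted p = 0.0866). SAT1 had 108 and 156 counts in DMSO, 265 at 1 µM and 267 at 10 µM, or 34.5, 29.0, 57.2 and 48.2 TMM-scaled CPM. Both doses lay above the DMSO pair, whereas its monosome footprints lay inside the pair at 1 µM and below it at 10 µM. Rows of 100 to 199 codons, the length class of SAT1, had median log2 fold changes of 0.15 at 1 µM and 0.34 at 10 µM. Of those rows, 16.0% lay above SAT1 at 1 µM and 41.5% at 10 µM. For SAT1 the log2 fold change was 0.86 at 1 µM (SE 0.22; edgeR, adjusted p = 0.00315) and 0.61 at 10 µM (SE 0.22; edgeR, adjusted p = 0.0177). DESeq2 called neither (adjusted p = 0.274 at 1 µM and 0.316 at 10 µM), and in a fit of all 12 libraries without disome DMSO 2 the 10 µM value was 0.48 (edgeR, adjusted p = 0.107).

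ODC1, with 218 and 311 disome counts in DMSO, 314 at 1 µM and 465 at 10 µM, had a log2 fold change of 0.41 at 10 µM (SE 0.20; edgeR, adjusted p = 0.0924). It passed in the fit of all 12 libraries at 0.44 (edgeR, adjusted p = 0.0266), and in that fit without disome DMSO 1 at 0.55 (edgeR, adjusted p = 0.014). SRM had 52, 81, 65 and 104 counts in the same order of libraries, and DHPS had 67, 87, 64 and 85. Neither gene was called at either dose. AZIN1 had 5 and 23 counts in DMSO, 23 at 1 µM and 12 at 10 µM. EIF5A2 had 3 and 3 counts in DMSO, 6 at 1 µM and 14 at 10 µM. The DMSO pair of AZIN1 differed 2.67-fold after scaling, so changes of that gene in disomes were not detectable at this depth. EIF5A2 reached the level that the filter on low counts asks for, 2.03 CPM, in the 10 µM disome library only, so it was tested because it was high there. Its log2 fold change of 1.79 at 10 µM (SE 0.96; edgeR, adjusted p = 0.124) and the call it had in the fit of all 12 libraries (1.85, edgeR, adjusted p = 0.0411) are therefore given as a description.

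Disomes were then set against monosomes of the same dose, which asks whether adjoining ribosomes changed more than ribosome load. SAT1 was the 1 gene of the 9 called at both doses. Its disome to monosome ratio per counted codon, on the log2 scale, was 1.11 in DMSO, 2.04 at 1 µM and 2.47 at 10 µM, above 94.3%, 99.7% and 99.9% of 8431 rows with at least 10 CPM in both kinds. The interaction was 0.99 at 1 µM (SE 0.24; edgeR, adjusted p = 0.0109) and 1.39 at 10 µM (SE 0.24; edgeR, adjusted p = 6.04e-06). The 10 µM call held in every alternative, while at 1 µM it was lost without monosome DMSO 1 (0.85, edgeR, adjusted p = 0.264) and without disome DMSO 2 (0.85, edgeR, adjusted p = 0.129). Rows of 100 to 199 codons had a median of 0.17 at 10 µM, and 16.8% of them lay above SAT1, which has 172 codons.

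Over the 9 genes, 2 were called at 10 µM, both higher, beside 12.2% of 48956 rows called, 8.54% higher and 3.62% lower. At 1 µM 1 was called, beside 1.53% of rows, 1.39% higher and 0.137% lower. EIF5A was the other called gene at 10 µM, with a log2 change of 0.59 (SE 0.18; edgeR, adjusted p = 0.018), and 36.2% of rows of 100 to 199 codons lay above it. In levels its ratio was among the lowest, at -2.21 in DMSO, -2.32 at 1 µM and -1.65 at 10 µM, with 0.676%, 0.332% and 1.10% of rows below it. Those rows need at least 10 CPM in DMSO disomes, so these shares may be too small as well. Its call was lost without monosome DMSO 1 (0.66, edgeR, adjusted p = 0.0732), without monosome DMSO 2 (0.59, edgeR, adjusted p = 0.123) and without disome DMSO 2 (0.55, edgeR, adjusted p = 0.0555). EIF5A2 had the largest change of the 9 at 10 µM, 1.58, but with an SE of 0.74 it was not called (edgeR, adjusted p = 0.172), and its disome counts were few. AMD1 had a ratio change of only 0.19 at 10 µM with an SE of 0.31 (edgeR, adjusted p = 0.772), so its disome and monosome footprints were not shown to rise by different amounts. ODC1 went the other way at -0.56 with an SE of 0.20 (edgeR, adjusted p = 0.0503), just short of the threshold, and without disome DMSO 2 it was -0.73 (edgeR, adjusted p = 0.0212). It was also called with 1 row kept per block of 10 rows (edgeR, adjusted p = 0.0413).

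EIF5A needs a closer account because 6 UCSC rows share its coding length of 155 codons. All 6 had the same RNA-seq counts, but in disomes row uc010vtv.3 departed from the row paired by file order, uc002gft.4. The paired row had 293 and 494 disome counts in DMSO, 408 at 1 µM and 607 at 10 µM. Row uc010vtv.3 had 303 and 523 in DMSO, 508 at 1 µM and 999 at 10 µM. The excess was thus 10 and 29 counts in DMSO, 100 at 1 µM and 392 at 10 µM, or 3.3%, 5.54%, 19.7% and 39.2% of that row. The other 4 rows had 293 in DMSO 1 and between 406 and 411 at 1 µM and between 611 and 612 at 10 µM. The log2 fold change at 10 µM was 0.24 for the paired row (SE 0.18; edgeR, adjusted p = 0.32) and 0.89 for row uc010vtv.3 (SE 0.17; edgeR, adjusted p = 3.05e-06). At 1 µM these were -0.07 (edgeR, adjusted p = 0.877) and 0.18 (edgeR, adjusted p = 0.648). Whether disome footprints on EIF5A rose at 10 µM therefore depends on which isoform row is read, and the ratio to monosomes above rests on the paired row. How row uc010vtv.3 differs from the others apart from its counts, and its ratio to monosomes, were not analysed here.

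**Figure D5:**
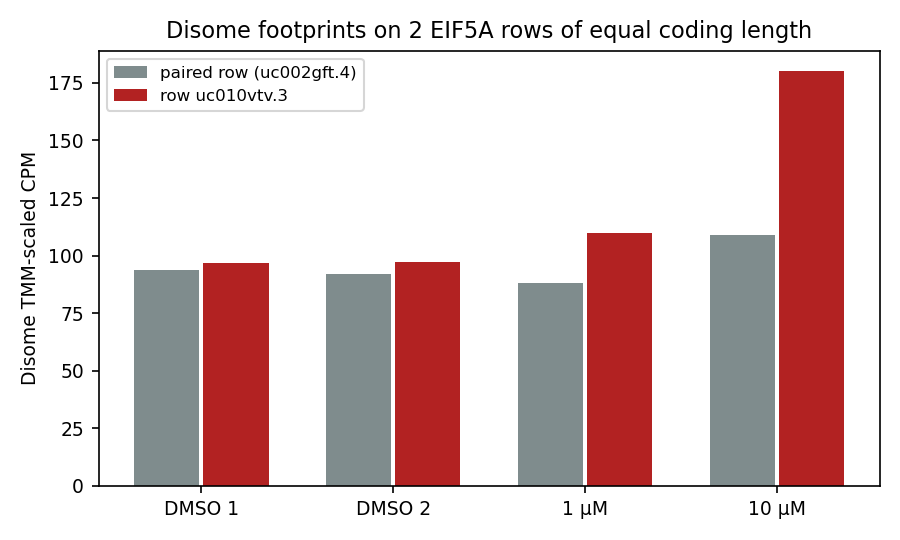
TMM-scaled CPM of disome footprints in each library for the EIF5A row paired by file order and for row uc010vtv.3 of the same coding length; each bar is 1 library. The 2 rows are nearly level in both DMSO libraries, with 293 and 303 counts in DMSO 1, and at 10 µM they part, with 607 and 999 counts.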

How the data were processed

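Each library has a deposited table of raw read counts per transcript. The submitters' processing notes name the build hg38 and the tools STAR 2.7.0a and CASAVA 1.8. The counting tool, annotation release and handling of reads that match several places are not given in the sources used here. The second column of the deposited tables is a length, taken as codons counted, 20 fewer than the coding length in RNA-seq and 10 fewer in monosome tables. Rows with identical counts in all libraries of a kind were merged. Isoform rows that differed in counts stayed apart, as for EIF5A in disomes, so a gene can hold several rows in ranks and shares. With 1 row kept per block of 10 rows, edgeR called 41.2% of rows in monosomes at 10 µM, beside 32.2% of all rows. The row kept was that of highest mean CPM in its block, and the 9 genes were always kept. These shares therefore differ in expression level as well as in repeated isoforms. Monosome and UCSC rows were paired on coding length as a longest common subsequence in file order, which paired 76301 rows, 76.1% of monosome coding rows. Of these, 89.9% had the same partner when aligned from the other end. Among the 9 genes, EIF5A, ODC1, DHPS and AMD1 lacked that agreement: EIF5A and ODC1 were paired from the start, DHPS from the end, and AMD1 through a neighbour of equal length and counts. Pairing is an inference.

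Tests used edgeR 4.0.16 under R 4.3.3 (TMM, filterByExpr, quasi-likelihood test, Benjamini-Hochberg adjustment, FDR 0.05), per kind (4 libraries, 1 residual degree of freedom) and, for ratios, over all 12 libraries (9 groups, 3 residual degrees of freedom). DESeq2 1.42.0 was an alternative. All 9 genes passed the filter in every comparison, EIF5A2 in disomes through the 10 µM library alone. All members were named whatever their values; the genes, lists and tests were chosen with earlier results of these data known. The planned list of other pathway genes was not analysed here, because no table used here pairs their transcript IDs with gene names. The scripts were tested on simulated data. The p-values reflect no more than the spread among these libraries, which may be technical.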

Additional observations from a re-analysis of the deposited data

How the results depend on the processing

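Of 90 gene results 21 were called, and 6 of these passed in every alternative: ODC1 and AMD1 in monosomes at 10 µM, both relative to mRNA at 10 µM, AMD1 in disomes at 10 µM and SAT1 in disomes relative to monosomes at 10 µM. None of the 21 changed sign. Every fit without a DMSO library was made like the fit of all 12 libraries, with the kinds fitted together. For monosomes, disomes or mRNA alone, its counts are thus to be set beside the fit of all 12 libraries. Of the 9 genes, monosome calls at 1 µM numbered 2, against 0 with DESeq2 (which gave no adjusted p for 7 genes, AMD1 and SMS included), 1 with 1 row per block of 10 rows, 1 in the fit of all 12 libraries and 0 without either DMSO library. At 10 µM they numbered 8, against 5 with DESeq2, 5 in the fit of all 12 libraries and 3 to 4 without a DMSO library. Disome calls at 1 µM were 1, against 0 with DESeq2, and at 10 µM 3, against 1 with DESeq2, 5 in the fit of all 12 libraries and 2 to 4 without a DMSO library. Without a DMSO library, calls relative to mRNA ran from 0 to 1 at 1 µM and from 3 to 6 at 10 µM, and calls of disomes relative to monosomes from 0 to 1 at 1 µM and from 1 to 2 at 10 µM. The cause of these differences was not tested. Over all rows DESeq2 called 6.34% in monosomes at 10 µM, where edgeR called 32.2%, and 7.49% in disomes, where edgeR called 35.7%.

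Of the 90 gene results, 27 that were not called changed sign, 24 of them only when a DMSO library was left out. Most lay near 0, but AZIN1 at 10 µM had -0.57 in disomes and 0.31 in disomes relative to monosomes. Outside such fits, DHPS in monosomes at 1 µM was 0.01 with 1 row per block, SRM in disomes relative to monosomes at 10 µM was 0.02 with no filter on low counts, and EIF5A in disomes at 1 µM was 0.18 with row uc010vtv.3, an alternative chosen after seeing the data. Without a DMSO library, mRNA log2 changes at 1 µM ran from -0.1 to 0.03 for SRM, -0.09 to 0.04 for ODC1, -0.2 to 0.07 for EIF5A2, -0.01 to 0.17 for AMD1 and for DHPS, -0.07 to 0.17 for AZIN1, -0.05 to 0.07 for SMS and 0.0 to 0.02 for SAT1. At 10 µM they ran from -0.13 to 0.14 for EIF5A2, -0.02 to 0.15 for AMD1 and -0.17 to 0.01 for DHPS. Monosome changes at 1 µM ran from -0.06 to 0.04 for SRM, -0.03 to 0.16 for AZIN1, -0.2 to 0.04 for SAT1, -0.01 to 0.06 for EIF5A and -0.03 to 0.01 for DHPS. Disome changes ran from 0.0 to 0.28 for ODC1 at 1 µM and from -0.97 to 0.44 for AZIN1 at 10 µM. Monosomes relative to mRNA at 1 µM ran from -0.04 to 0.09 for SRM, -0.11 to 0.12 for AZIN1 and -0.21 to 0.03 for SAT1. Disomes relative to monosomes ran from -0.23 to 0.05 for ODC1 and -0.31 to 0.05 for AMD1 at 1 µM, and from -0.12 to 0.07 for SRM, -0.09 to 1.31 for AZIN1 and -0.12 to 0.3 for DHPS at 10 µM.

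The labels do not say whether DMSO libraries with the same number share a culture. The correlations of their differences across 22244 rows were -0.068 for RNA-seq with monosomes, 0.171 for RNA-seq with disomes and -0.031 for monosomes with disomes, not all above the 0.1 asked of paired samples, so the numbers were not treated as pairs. With that number as a replicate block, calls at 10 µM were 4 relative to mRNA, as without it, and 3 for disomes relative to monosomes, where 2 were called without it. The gene added was ODC1, lower at -0.56 (edgeR, adjusted p = 0.0412). The low disome depth limits AZIN1 and EIF5A2 most.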

Other observations

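Over the 6 log2 fold changes (both doses in 3 kinds of library, from the fit of all 12 libraries), the transcripts nearest to EIF5A among 8265 rows with at least 10 mean CPM in every kind, neighbouring rows left out, were ENST00000472580.6 and ENST00000295688.8. Their Euclidean distances from EIF5A on the log2 scale were 0.089 and 0.156. At 10 µM ENST00000472580.6, of 146 codons, had -0.24 in mRNA, -0.33 in monosomes and 0.21 in disomes, and ENST00000295688.8, of 546 codons, had -0.2, -0.27 and 0.18. All 3 rows had values near 0 at 1 µM, between -0.11 and 0.02 for ENST00000472580.6. The tables do not pair these IDs with gene names.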
